A study of Arabidopsis thaliana with 7 samples.

Results

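The morning-phased clock genes of Arabidopsis thaliana are 9 loci whose transcripts peak between dawn and the later part of the day. They were chosen by locus and not by signal: every probe whose RefSeq transcript belongs to CCA1 (AT2G46830), LHY (AT1G01060), RVE1 (AT5G17300), RVE8 (AT3G09600), PRR9 (AT2G46790), PRR7 (AT5G02810), PRR5 (AT5G24470), LNK1 (AT5G64170) or LNK2 (AT3G54500). Together they had 15 of the 43603 probes and were 9 of 25347 genes with a named probe. All 9 were well above background on all 7 arrays and all were among the 20509 genes tested.

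The arrays compared 35S:MYB106VP16 seedlings (4 arrays) with wild-type seedlings (3 arrays). All plants were Columbia-0, 3 weeks old, and were harvested whole from sucrose-containing agar plates kept in long days. The transgene fuses the MYB106 transcription factor to the VP16 activation domain behind the 35S promoter, which is active in most plant tissues. The number of independent transgenic lines is not stated in the labels. Each RNA preparation came from several of the many seedlings on a plate. No label says that replicates were grown apart, so the p-values rest on a spread between arrays that could be technical. The labels give the photoperiod but no hour of harvest, so the levels below belong to an unstated time of the day-night cycle. The arrays of each genotype were on 1 slide of their own, so slide and genotype cannot be told apart.

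The plant clock is a set of transcription factors that repress or activate each other in turn through the day. CCA1 and LHY are related MYB-like factors made around dawn that bind the evening element in promoters and repress genes of the evening, TOC1 among them. PRR9, PRR7 and PRR5 are pseudo-response regulators made in sequence through the day, and they repress CCA1 and LHY. RVE8, a MYB-like relative of CCA1, acts the other way and activates evening genes and PRR5, with LNK1 and LNK2 as its coactivators. RVE1, another relative, is a morning output factor that connects the clock to auxin and growth.

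Each signal below is the processed signal of a gene's brightest probe divided by the 75th percentile of the processed signals on that array. That percentile was 2213 to 2858 units on the 35S:MYB106VP16 arrays and 2492 to 2677 units on the wild-type arrays. MYB106 (AT3G01140), which the transgene carries, had a scaled signal of 5.91 to 11.1 in 35S:MYB106VP16, against 0.138 to 0.188 in wild type. Leaf markers were bright throughout, with a summed scaled signal of 372 to 449 in 35S:MYB106VP16 and 442 to 470 in wild type over 8 genes. All 8 leaf markers and all 9 root markers were well above background on every array, so both organs were represented in each sample. The summed signal of the 9 root markers was 3.90 to 5.24 in 35S:MYB106VP16 and 4.08 to 4.68 in wild type. That sum came mostly from SCR, CASP1 and SHR. Among root markers PRP3 (log2 2.06), EXPA7 (1.02) and COBL9 (0.87), genes of root hairs, rose. SHR, a root patterning factor, fell (-0.48), and 5 were not called. The log2 rise of PRP3 was larger than that of any morning-phased clock gene. PRP3 was dim, at 0.0417 to 0.0772 in 35S:MYB106VP16 against 0.0108 to 0.0193 in wild type. Among leaf markers LHCA2 and PSAD-2 fell and 6 were not called. The largest change among leaf markers was that of LHCB2.1 (log2 1.69), which did not pass (adjusted p = 0.0528, limma). Its wild-type arrays disagreed, at 0.860, 0.140 and 0.129, against 0.739 to 0.886 in 35S:MYB106VP16. Of 4 flower markers PI, a petal and stamen identity gene, rose (log2 1.18), while AP3 (-0.66), AG (-1.52) and AP1 (-0.39) were not called, and the median of the 4 was -0.53. Their summed signal, most of it from PI, was 0.996 to 1.74 in 35S:MYB106VP16 and 0.533 to 1.30 in wild type. The part of organ proportions in the clock gene results was not tested.

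By their brightest probes, 3 of the 9 genes were higher in 35S:MYB106VP16 (LHY, RVE1 and LNK1), 1 was lower (PRR5) and 5 were not called (CCA1, RVE8, PRR9, PRR7 and LNK2), at a Benjamini-Hochberg adjusted p under 0.05 in limma over all genes tested. That is 4 of 9, against 52.9% of all genes tested, where 28.1% were higher and 24.8% lower. The groups did not overlap for the same 4 members, against 57.4% of all genes. LHY and RVE1 rose by over 2-fold, as did 5.77% of all genes by the same test. The median log2 change of the 9 was 0.27, against 0.02 over all genes, and their median absolute log2 change was 0.31, against 0.34. The 0.27 is the value of LNK1, whose probes disagree. With all probes of a gene averaged, the median of the 9 was -0.027, against -0.017 over all genes. That average weighs every probe equally on the log2 scale, dim ones included. Without wild type replicate 1 the median of the 9 by their brightest probes was 0.16. In whole seedlings, fewer cells that express a gene and less RNA per cell cannot be told apart.

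**Figure D1:**
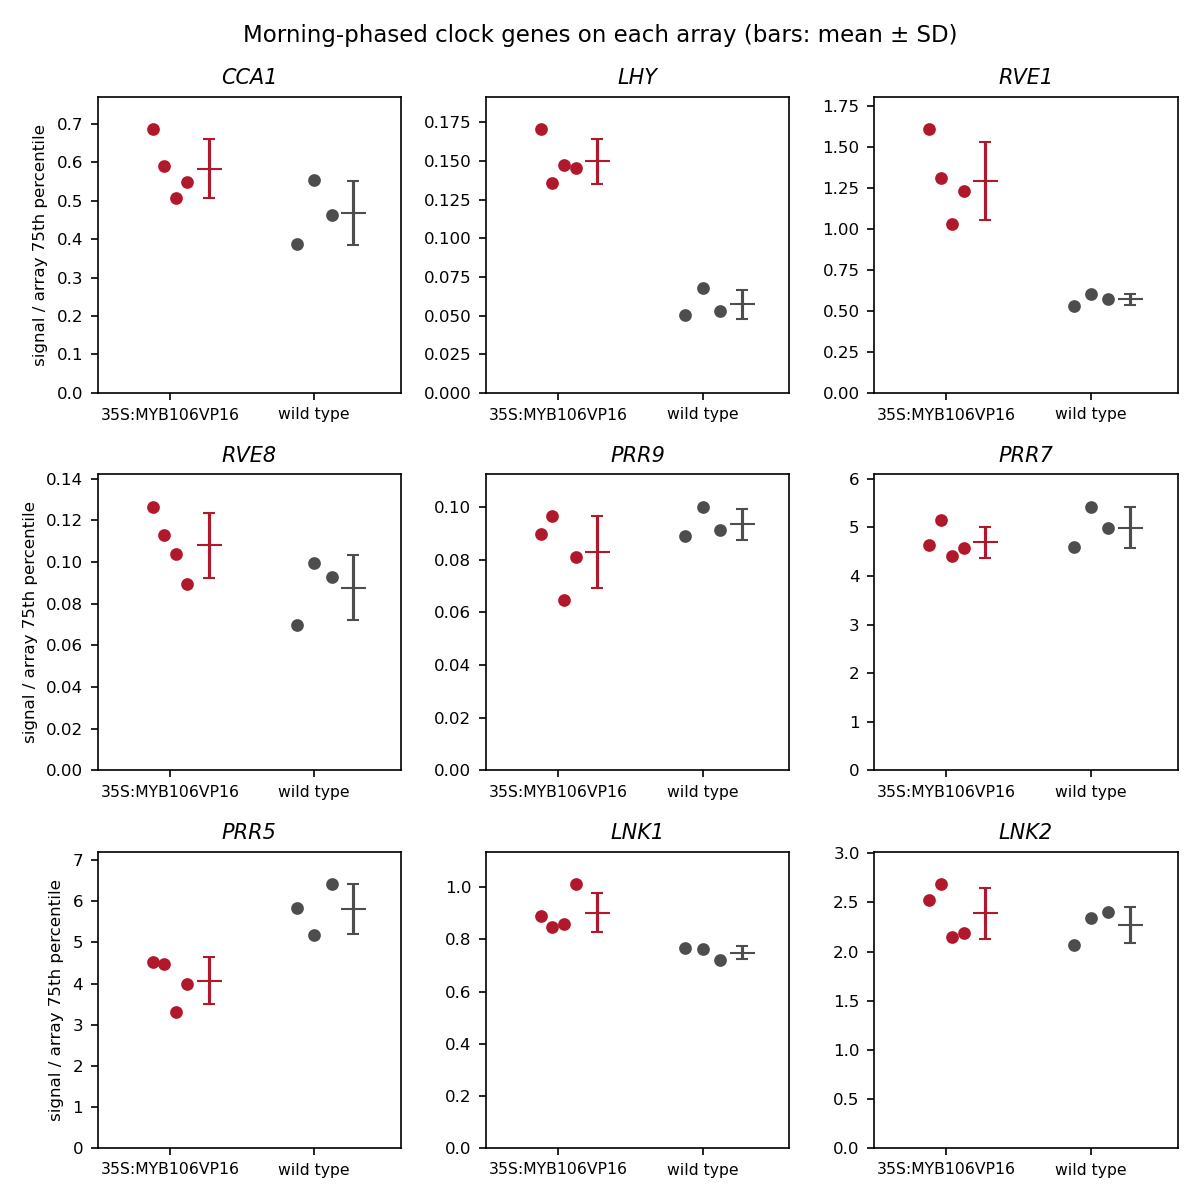
Signal of each morning-phased clock gene divided by the 75th percentile of its array, on 4 35S:MYB106VP16 arrays (red) and 3 wild-type arrays (grey). Points are arrays, and horizontal ticks with bars give the mean ± SD. LHY and RVE1 lay at 0.136 to 0.170 and 1.03 to 1.61 in 35S:MYB106VP16, above every wild-type array, and PRR5 lay below every wild-type array.

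LHY, the dawn repressor, showed the largest change of the 9. Its scaled signal was 0.170, 0.136, 0.148 and 0.146 on the 4 35S:MYB106VP16 arrays and 0.0507, 0.0681 and 0.0531 on the 3 wild-type arrays. All transgenic arrays lay well above all wild-type arrays. LHY averaged 0.150 ± 0.0147 in 35S:MYB106VP16 (SD, n = 4) and 0.0573 ± 0.00946 in wild type (SD, n = 3). It was 2.63-fold higher (log2 1.39 ± 0.13 SE; adjusted p = 0.000277, limma).

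CCA1, the partner of LHY, had scaled signals of 0.686, 0.592, 0.508 and 0.549 in 35S:MYB106VP16 and 0.388, 0.555 and 0.464 in wild type. Wild type replicate 2 stood above replicates 3 and 4 of 35S:MYB106VP16, so the groups overlapped. The log2 difference was 0.32 (95% interval -0.02 to 0.67; adjusted p = 0.103, limma), which leaves room for a rise of up to 1.59-fold. Without wild type replicate 2 it was 0.45 and passed (adjusted p = 0.0468, limma), and without wild type replicate 1 it was 0.19 (adjusted p = 0.305, limma). The ratio of LHY to CCA1 on the same array, which no scaling of arrays can alter, differed between genotypes. On the log2 scale it was -1.96 ± 0.14 in 35S:MYB106VP16 (SD, n = 4) and -3.03 ± 0.09 in wild type (SD, n = 3), a difference of 1.07 (two-sided exact permutation p = 0.0286, the smallest that 4 against 3 arrays allow). All 36 pairs of members were compared in this way. Of them 22, this pair included, reached that smallest p, at 0.0468 after Benjamini-Hochberg adjustment over the 36. The pairs share members and are not independent, and that adjusted value follows from how many pairs tie at the smallest p. How often pairs of other genes reach it was not tested, and 57.4% of all single genes tested had groups without overlap.

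RVE1, the morning output factor, was higher on every transgenic array. Its scaled signal was 1.61, 1.31, 1.03 and 1.23 in 35S:MYB106VP16, against 0.534, 0.607 and 0.572 in wild type. It averaged 1.30 ± 0.239 in 35S:MYB106VP16 (SD, n = 4) and 0.571 ± 0.0364 in wild type (SD, n = 3), so the transgenic arrays were more spread out than the wild-type arrays but stayed clear of them. RVE1 was 2.25-fold higher (log2 1.17 ± 0.15 SE; adjusted p = 0.00074, limma). The log2 ratio of LHY to RVE1 overlapped between genotypes, with a difference of 0.23 (two-sided exact permutation p = 0.2, adjusted 0.232 over the 36 pairs).

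RVE8, the activator of evening genes, ranged from 0.0893 to 0.126 in 35S:MYB106VP16 and from 0.0700 to 0.0998 in wild type, with overlap. Its log2 difference was 0.31 (95% interval -0.07 to 0.68; adjusted p = 0.141, limma). The log2 ratio of RVE1 to RVE8 was 3.58 ± 0.20 in 35S:MYB106VP16 (SD, n = 4) and 2.72 ± 0.18 in wild type (SD, n = 3), and the groups did not overlap (two-sided exact permutation p = 0.0286, adjusted 0.0468 over the 36 pairs). The ratio of CCA1 to RVE8 differed by only 0.01 on the log2 scale (two-sided exact permutation p = 0.914, adjusted 0.914).

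Among the pseudo-response regulators PRR5 fell. Its scaled signal was 4.53, 4.46, 3.30 and 3.98 in 35S:MYB106VP16, against 5.85, 5.18 and 6.41 in wild type. Replicate 3 was the lowest of the transgenic arrays, and all 4 lay below the lowest wild-type array. PRR5 averaged 4.07 ± 0.568 in 35S:MYB106VP16 (SD, n = 4) and 5.81 ± 0.618 in wild type (SD, n = 3), a 1.43-fold lower signal (log2 -0.52 ± 0.13 SE; adjusted p = 0.0137, limma). The call depended on wild type replicate 3, without which the log2 change was -0.45 (adjusted p = 0.0575, limma).

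PRR9 and PRR7, which act earlier in the day than PRR5, were not called. PRR9 had scaled signals of 0.0648 to 0.0964 in 35S:MYB106VP16 and 0.0889 to 0.100 in wild type, a log2 difference of -0.18 (95% interval -0.51 to 0.14; adjusted p = 0.302, limma). PRR7 had 4.41 to 5.15 in 35S:MYB106VP16 and 4.59 to 5.42 in wild type, a log2 difference of -0.09 (95% interval -0.29 to 0.12; adjusted p = 0.429, limma). With this scaling and probe, a fall of PRR7 as large as the one measured for PRR5 lay outside its interval. With spike-in scaling PRR9 (log2 -0.77; adjusted p = 0.00249, limma) and PRR7 (log2 -0.68; adjusted p = 0.00264, limma) were called lower, beside 66.0% of all genes, and PRR5 stood at -1.11. The difference between PRR5 and PRR7 in their response did not pass by itself. The log2 ratio of PRR5 to PRR7 was -0.22 ± 0.16 in 35S:MYB106VP16 (SD, n = 4) and 0.22 ± 0.24 in wild type (SD, n = 3; two-sided exact permutation p = 0.0571, adjusted 0.0791 over the 36 pairs). PRR5 and LHY moved furthest apart, with a log2 ratio of LHY to PRR5 that was 1.91 higher in 35S:MYB106VP16 (two-sided exact permutation p = 0.0286, adjusted 0.0468). LHY rose most and PRR5 fell most of the members, and neither had groups that overlapped. The size and separation of this ratio follow from that and are no further result.

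The coactivators changed little by their brightest probes. LNK1 had scaled signals of 0.891, 0.849, 0.858 and 1.01 in 35S:MYB106VP16, against 0.765, 0.763 and 0.720 in wild type. The groups were separate but close, and LNK1 was 1.20-fold higher (log2 0.27 ± 0.08 SE; adjusted p = 0.0302, limma). This call was lost without replicate 1 of 35S:MYB106VP16 (adjusted p = 0.0592, limma) and without wild type replicate 1 (0.0569), replicate 2 (0.0719) or replicate 3 (0.113). LNK2 ranged from 2.15 to 2.68 in 35S:MYB106VP16 and from 2.06 to 2.40 in wild type, and its log2 difference was 0.07 (95% interval -0.18 to 0.32; adjusted p = 0.599, limma). The log2 ratio of LNK1 to LNK2 overlapped between genotypes (difference 0.19; two-sided exact permutation p = 0.286, adjusted 0.321 over the 36 pairs).

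**Figure D2:**
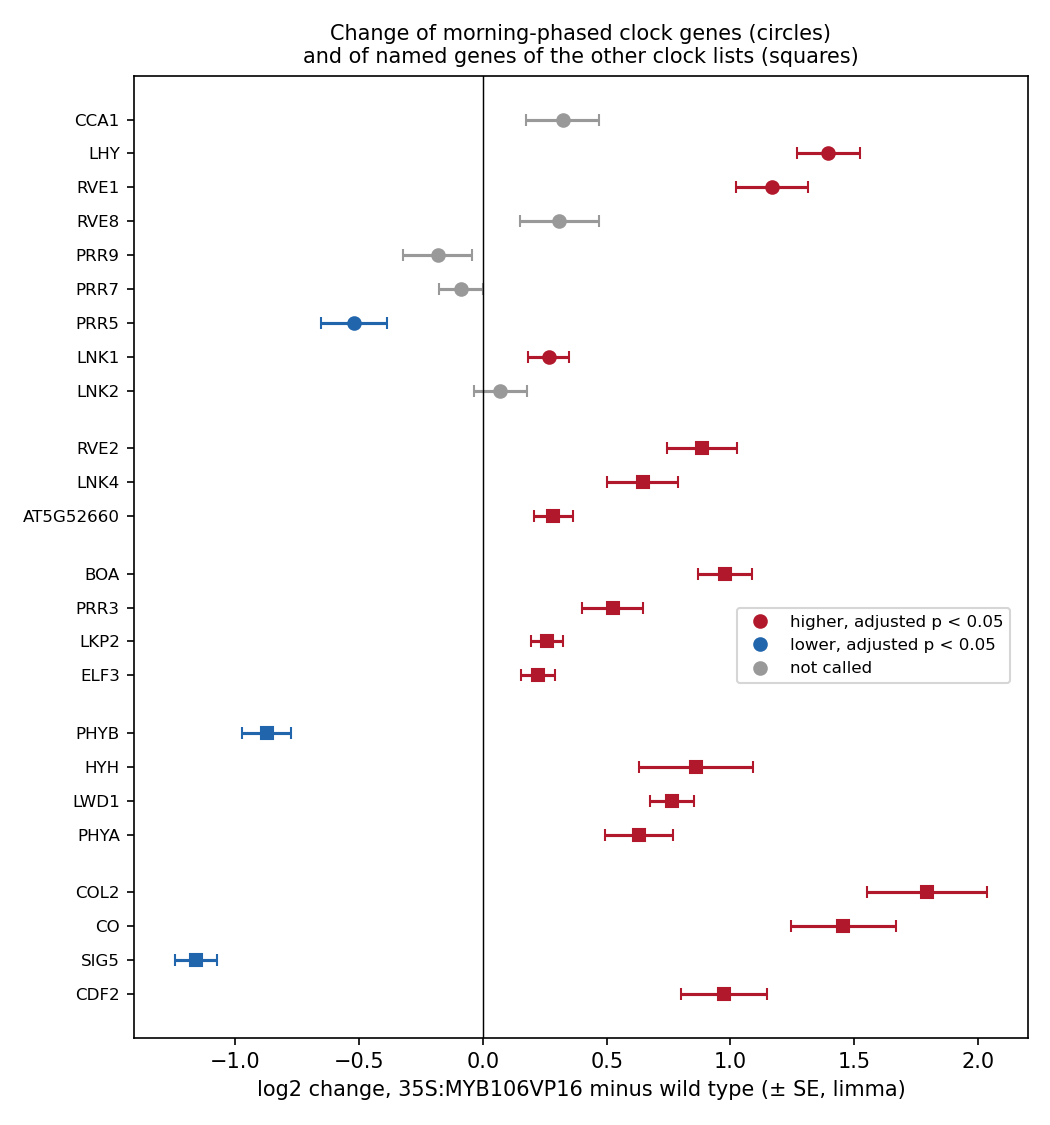
Log2 change, 35S:MYB106VP16 minus wild type, with limma standard errors, for the 9 morning-phased clock genes (circles) and for the named genes of the other clock lists (squares), grouped as in the text. LHY (1.39) and RVE1 (1.17) lie at the right among the circles and PRR5 (-0.52) at the left, while COL2 (1.79), CO (1.46) and SIG5 (-1.16) have the largest changes among the squares.

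The probes of a gene did not always move together. Of the 15 probes, fitted with all 33215 detectable probes as separate features, 3 were higher, 2 lower and 10 not called, against 53.9% of all probes called in either direction. LHY, RVE8, PRR9 and PRR5 had 1 probe each, so their values had no second probe to compare with. The dimmer RVE1 probe moved in the direction of the brighter one, with 0.548 to 1.07 in 35S:MYB106VP16 against 0.401 to 0.537 in wild type, without passing (log2 0.64 ± 0.24 SE; adjusted p = 0.0531, limma).

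LNK1 was measured in opposite directions. Its dimmer probe had 0.0153, 0.0167, 0.0158 and 0.0219 in 35S:MYB106VP16, against 0.0273, 0.0326 and 0.0322 in wild type, so that every transgenic array was lower (log2 -0.83 ± 0.14 SE; adjusted p = 0.00251, limma). The direction of LNK1 is therefore not settled by these arrays. The CCA1 probes also disagreed in sign. The dimmer pair gave log2 differences of -0.69 ± 0.27 SE (adjusted p = 0.061, limma) and -0.67 ± 0.28 SE (adjusted p = 0.0805, limma). Neither passed, while the brightest probe gave 0.32. In that order the dimmer pair had scaled signals of 0.0128 to 0.0369 and 0.0494 to 0.154, against 0.388 to 0.686 for the brightest. For PRR7 the dimmer probe gave 0.33 (adjusted p = 0.107, limma) and for LNK2 -0.13 (adjusted p = 0.528, limma). Both were also of the other sign than the bright probe and not called. The dimmer PRR7 probe had 0.0682 to 0.115 and the dimmer LNK2 probe 0.164 to 0.245. Their bright probes had 4.41 to 5.42 and 2.06 to 2.68. Probe sequences were not used here, and which part of a transcript each probe reads was not tested.

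**Figure D3:**
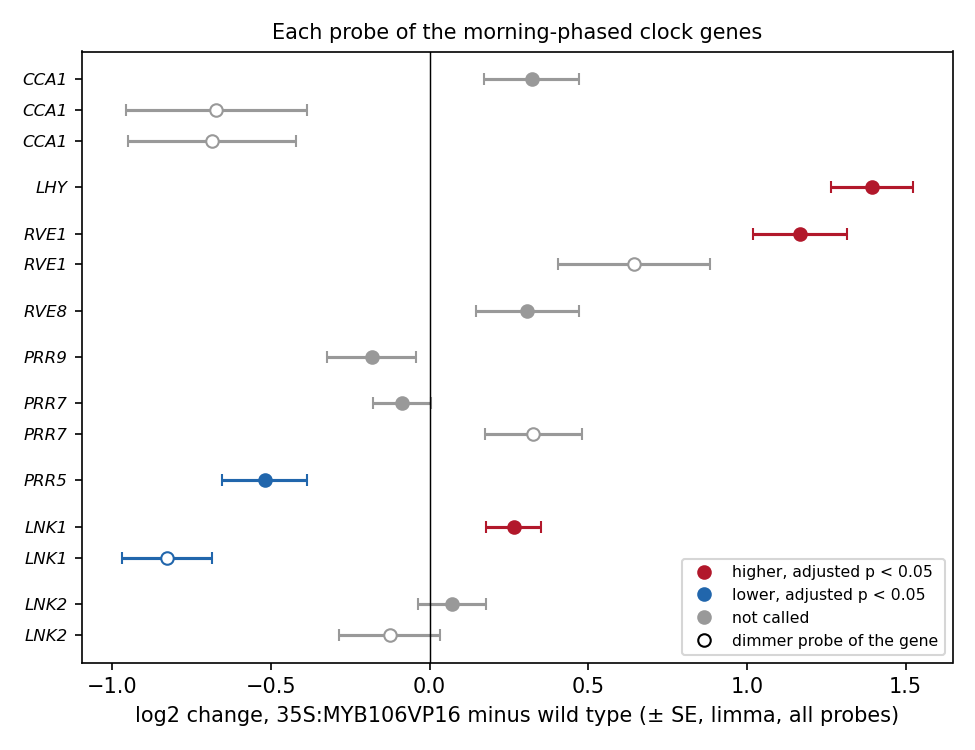
Log2 change of each of the 15 probes, 35S:MYB106VP16 minus wild type, with limma standard errors from the fit of all probes. Filled circles are the brightest probe of a gene and open circles the dimmer ones. The LNK1 probes are called in opposite directions (0.27 and -0.83), and the dimmer CCA1 probes lie near -0.7, left of the bright one at 0.32.

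Most of the 9 genes deviated in the same direction on some arrays. LNK1 stood apart, with correlations of -0.54 to 0.13 between its deviations from the genotype mean and those of the other members over the 7 arrays. On 35S:MYB106VP16 replicate 3 all 9 lay below the mean of the transgenic arrays, by 0.02 to 0.34 on the log2 scale, where 50.1% of all genes lay below. On replicate 1 of 35S:MYB106VP16 7 of 9 lay above that mean, with RVE1 highest at 0.33, where 52.8% of all genes lay below. Replicate 2 also had 7 of 9 above, where 53.0% of all genes lay below. Replicate 4 had 8 of 9 below, beside 42.7% of all genes. Deviations of a gene sum to 0 within a genotype, so low values on some arrays go with high values on others. On wild type replicate 2, 8 of 9 lay above the wild-type mean, with PRR5 the exception at -0.16, where 49.6% of all genes lay below. On wild type replicate 1 7 of 9 lay below that mean, where 44.9% of all genes did. The median range between arrays of 1 genotype was 0.43 for the 9 genes and 0.33 for all genes in 35S:MYB106VP16, and 0.24 for the 9 genes and 0.20 for all genes in wild type. Values from 1 array share its RNA preparation, so these are not independent observations.

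**Figure D4:**
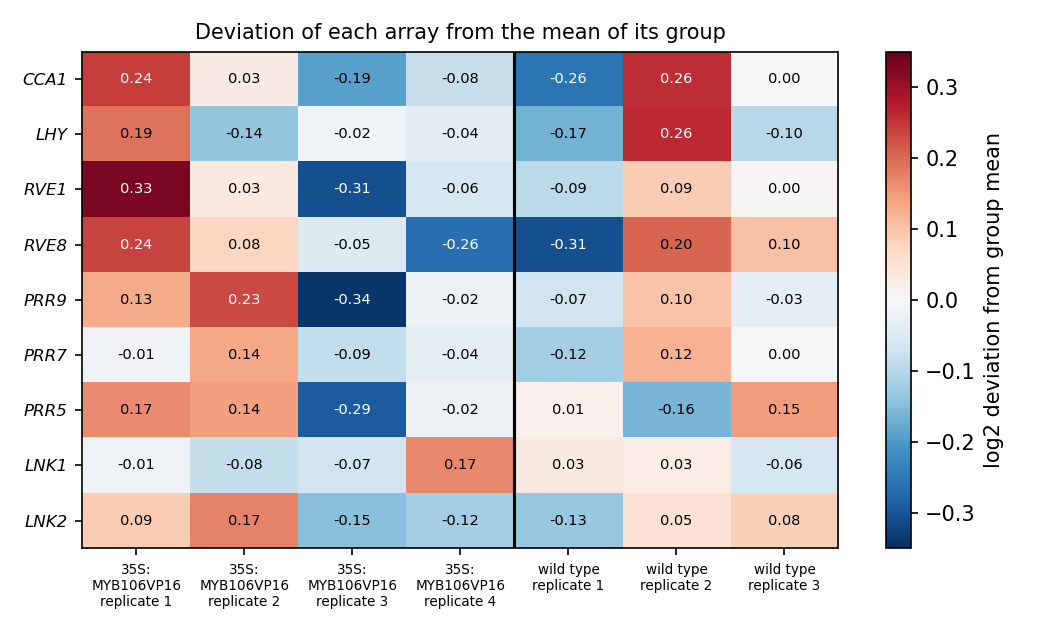
Log2 deviation of each gene on each array from the mean of its own genotype, with 35S:MYB106VP16 left of the black line and wild type right of it. The column of 35S:MYB106VP16 replicate 3 is negative for all 9 genes, and that of wild type replicate 2 is positive for 8 of 9.

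LHY and RVE1 stayed above 0 and PRR5 below 0 whichever quantity the arrays were scaled to, while smaller changes depended on it. The higher genes made up 53.2% of all calls when arrays were set to their 75th percentile, with 0.02 as the median log2 change over all genes. They made up 66.6% when arrays were set to their median (median log2 change 0.14), 76.2% in the authors' deposited values (0.23) and 8.06% when arrays were set to 8 bright spike-in RNAs (-0.57). Relative to the median of all genes, LHY was at 1.37, RVE1 at 1.14 and PRR5 at -0.54 under each of these scalings. That sameness is arithmetic and no test of the changes, since all signals of an array are divided by the same number under these scalings. LHY and RVE1 were called higher under all of them. PRR5 was called lower except with the authors' deposited values (log2 -0.31; adjusted p = 0.212, limma). LNK1 turned to -0.32 with spike-in scaling (adjusted p = 0.0358, limma), and CCA1, called higher with median scaling at 0.44 (adjusted p = 0.0404, limma), stood at -0.27 with spike-in scaling without being called.

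**Figure D5:**
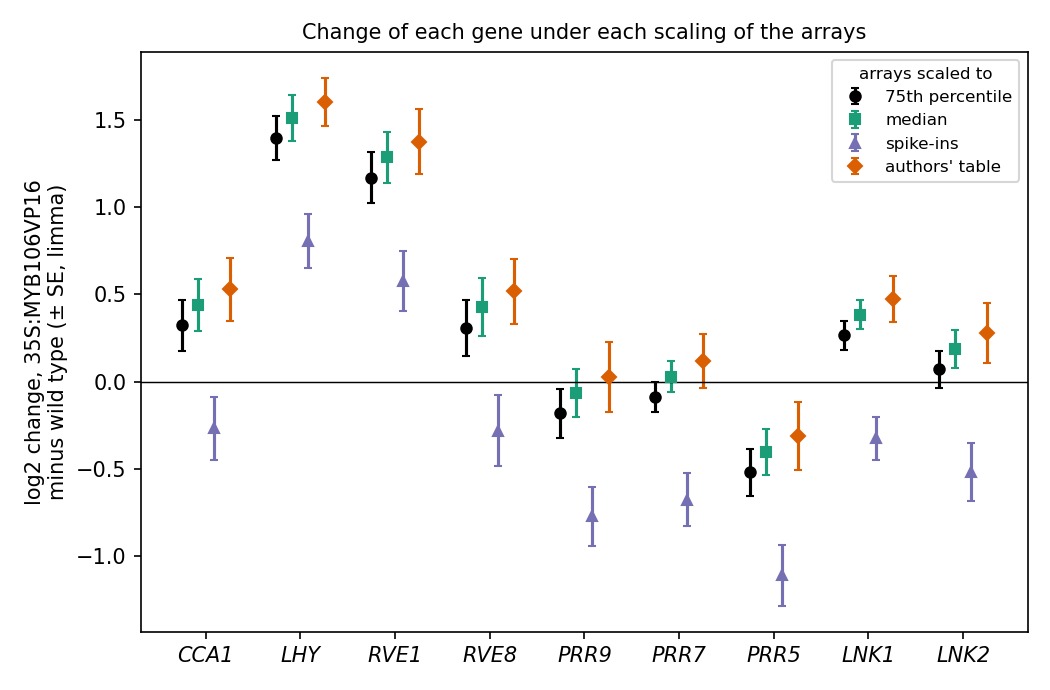
Log2 change of each gene, 35S:MYB106VP16 minus wild type, with limma standard errors, after scaling the arrays to their 75th percentile, their median or the spike-in RNAs, and in the authors' deposited values. LHY and RVE1 stay above 0 and PRR5 below 0 under each scaling, while CCA1, RVE8, LNK1 and LNK2 fall below 0 with spike-ins and PRR9 and PRR7 lie above 0 in the authors' values.

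The relatives of these genes were compared in the same fit. Of 8 other REVEILLE and LNK genes 7 were tested, 3 rose and none fell, beside 28.1% of all genes higher and 24.8% lower. With spike-in scaling none rose and 3 fell, beside 5.79% of all genes higher and 66.0% lower. A single gene fell with quantile normalization, without 35S:MYB106VP16 replicate 1 or without wild type replicate 1. In the same order, 24.9%, 22.4% and 21.5% of all genes were lower. RVE2, a MYB-like relative of RVE1, had 1.30 to 1.59 in 35S:MYB106VP16 against 0.712 to 0.999 in wild type (1.85-fold higher; adjusted p = 0.00195, limma), and LNK4 had 4.26 to 6.62 against 3.19 to 3.59 (1.56-fold higher; adjusted p = 0.00765, limma). AT5G52660, a further member of the list, was 1.22-fold higher (adjusted p = 0.0183, limma), and lost its call without wild type replicate 2 (0.0583) or replicate 3 (0.0614). RVE4, the closest relative of RVE8, was not called (log2 -0.26; adjusted p = 0.0717, limma).

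Of 14 genes listed as evening-phased clock genes 5 rose and none fell, beside 28.1% of all genes higher and 24.8% lower. The hour at which each transcript of the list peaks was not measured here. With spike-in scaling none rose and 10 fell, beside 5.79% and 66.0% of all genes. The median log2 change of the 14 was 0.19, against 0.02 over all genes. The 5 became 3 without 35S:MYB106VP16 replicate 3, wild type replicate 1 or wild type replicate 3, and 2 without wild type replicate 2. In the same order, the share of all genes called higher was 26.2%, 25.8%, 20.6% and 22.7%, so it fell as well. BOA, a homolog of the evening complex factor LUX, had 0.771 to 0.997 in 35S:MYB106VP16 against 0.403 to 0.477 in wild type (1.97-fold higher; adjusted p = 0.000501, limma). PRR3, a pseudo-response regulator that stabilises TOC1 protein, was 1.44-fold higher (adjusted p = 0.01, limma). The F-box photoreceptor gene LKP2 was 1.20-fold and ELF3, the scaffold of the evening complex, 1.17-fold higher, and neither call held in every set of 6 arrays. LKP2 had an adjusted p of 0.0529 in limma without wild type replicate 2, and ELF3 had 0.0599 to 0.0899 without replicate 2 or 3 of 35S:MYB106VP16 or any wild-type array. ZTL, another F-box photoreceptor gene, was the fifth called (1.15-fold higher; adjusted p = 0.0397, limma). TOC1 (log2 0.17; adjusted p = 0.211, limma) and GI (log2 -0.10; adjusted p = 0.65, limma), both repressed by CCA1 and LHY in the known circuit, were not called.

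Of 23 light input and clock-associated factors 7 rose, 6 fell and 10 were not called, shares near the 28.1% and 24.8% of all genes, and none rose and 16 fell with spike-in scaling, beside 5.79% and 66.0% of all genes. PHYB, the main red light receptor of light-grown plants, had 0.774 to 0.974 in 35S:MYB106VP16 against 1.56 to 1.66 in wild type (log2 -0.87 ± 0.10 SE; adjusted p = 0.000496, limma), and PHYA, the far-red light receptor, had 11.1 to 16.8 against 8.39 to 8.93 (1.55-fold higher; adjusted p = 0.00696, limma). LWD1, a WD-repeat protein that activates CCA1, was 1.70-fold higher (adjusted p = 0.000548, limma). HYH, a homolog of the light-response factor HY5, was 1.82-fold higher (adjusted p = 0.0163, limma), though not without wild type replicate 1 (0.0575) or replicate 3 (0.0635).

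Of 12 rhythmic output genes 8 rose and 2 fell (SIG5 and PIF4), beside 28.1% of all genes higher and 24.8% lower. With spike-in scaling 2 rose and 4 fell, beside 5.79% and 66.0% of all genes. Without wild type replicate 3 only 1 fell, beside 18.9% of all genes. COL2, a CONSTANS-like gene of the morning, had 0.370 to 0.694 in 35S:MYB106VP16 against 0.142 to 0.207 in wild type (3.47-fold higher; adjusted p = 0.000992, limma). CO, the photoperiodic flowering activator, had 0.0407 to 0.0464 against 0.0115 to 0.0228 (2.74-fold higher; adjusted p = 0.00136, limma). The CO signals were low, and the size of the change depended on the processing. The log2 change of CO, 1.46 here, was 0.61 with normexp background correction and 1.14 with its probes averaged, called higher in both. CDF2, a DOF repressor of CO, had 0.899 to 1.38 against 0.510 to 0.709 (1.96-fold higher; adjusted p = 0.00314, limma). SIG5, a plastid sigma factor under clock and light control, moved the other way, with 0.227 to 0.253 in 35S:MYB106VP16 against 0.480 to 0.575 in wild type (log2 -1.16 ± 0.08 SE; adjusted p = 0.000147, limma).

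PRR9 and CCA1 are close neighbours, with 3 genes between them in the gene order of the RefSeq table. Those 3 went in different directions: ZAT was higher (log2 0.68), and AT2G46810 (-0.54) and PSI-P (-0.29) were lower, while CCA1 and PRR9 were not called. The genes most like CCA1 over the 7 arrays, by Pearson correlation of log2 signal among 20448 genes, were RH1 (0.971), AT3G10030 (0.962) and AT2G22720 (0.961), none of which was called. These values over 7 arrays describe these arrays only and include the difference between genotypes.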

How the data were processed

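Spot intensity came from the authors' 1-colour scans and was read in Agilent Feature Extraction 9.1.3.1 with subtraction of background and spatial trends, per the file headers and the submitters' processing notes. The authors' deposited series table holds the same processed intensity divided by 1 constant per genotype, 1042 for 35S:MYB106VP16 and 1238 for wild type, on a linear scale without centring (column medians 0.331 to 0.438). No source used here says how the constants were set, and the table was used only as an alternative.

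Control and outlier spots were left out and repeat spots averaged. The processed signal was divided by each array's 75th percentile and put on the log2 scale from the deposited intensities. No signal was at or below 0 and no spot was saturated. RefSeq accessions, without versions, matched 34185 of 36022 probes to 25347 genes of the TAIR10.1 table. No genome build is named in the files, so no coordinates are given. The brightest probe on average stood for a gene, tested where well above background on at least 3 arrays. All 20509 such genes entered limma 3.58.1 (R 4.3.3), in a model with 1 genotype term, and p-values were adjusted by Benjamini-Hochberg. The number of arrays limits the precision. Pairs of members were compared by two-sided exact permutation over 35 splits.

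Members, lists and tests were chosen with earlier results of these data known. Named genes are all members, MYB106, up to 4 called members of each other clock list by absolute change, and the 3 genes most like CCA1. Other names (TOC1, GI, ZTL, RVE4, PIF4, DET1, JMJD5, CHE, CKB4, the markers and neighbours) were chosen after values were seen, as were the pair comparison, the values of single probes and the medians and shares under each alternative. Genes whose familiar names the sources used here do not pair with a locus are given by locus. The fit was tested on simulated data with known changes, 50 genes at each fold among 20448. It recovered 4% of 1.25-fold, 44% of 1.5-fold, 68% of 2-fold and 94% of 4-fold changes, with 6 false calls. Small changes can therefore go uncalled. Far fewer genes changed there than were called here (52.9%), so recovery in these data can differ. Alternatives were normexp correction (offset 50), quantile, median and spike-in scaling, the authors' table, other filters on dim probes, the mean over probes, all probes as features, leaving out each array and a replicate block.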

Additional observations from a re-analysis of the deposited data

How the results depend on the processing

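No slide held both genotypes, so a slide block could not be fitted. Of 159 results of the 9 genes under alternatives, other probes included, 126 stayed on the same side of 0 and of the threshold, 17 changed sign, 9 lost a call and 7 gained one. LHY and RVE1 kept theirs under every alternative but the other RVE1 probe, LHY at log2 0.80 to 1.602 and RVE1 at 0.58 to 1.38. Another scaling moves every gene by nearly the same amount, and the cause of the other changes was not tested. With spike-in scaling the log2 change was -0.27 for CCA1, -0.28 for RVE8, -0.32 for LNK1 and -0.52 for LNK2, and among other named genes -0.30 for AT5G52660, -0.066 for PRR3, -0.33 for LKP2 and -0.37 for ELF3. In the authors' table PRR9 stood at 0.025 and PRR7 at 0.12. With the median scaling PRR7 stood at 0.029, and with normexp at 0.019. Averaging a gene's probes with equal weight put CCA1 at -0.35, PRR7 at 0.12, LNK1 at -0.28, LNK2 at -0.027 and AT5G52660 at -0.076. The other probes, a comparison added after seeing the data, gave -0.69 and -0.67 for CCA1, 0.33 for PRR7, -0.83 for LNK1 and -0.13 for LNK2.

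Of the 9 genes, 3 were higher and 1 lower. The authors' table gave 5 higher and 0 lower, beside 35.6% and 11.1% of all genes. Normexp gave 2 lower (PRR9 at adjusted p = 0.0479 in limma joined PRR5), beside 24.4% of all genes. Spike-in scaling gave 5 lower (PRR9, PRR7, PRR5, LNK1 and LNK2), beside 66.0% of all genes. Leaving out single arrays gave 2 to 3 higher and 0 to 1 lower, beside 20.6% to 26.8% and 18.9% to 25.0% of all genes. The other 4 clock lists had 7, 14, 23 and 12 genes tested. Over them 23 were higher and 8 lower, beside 28.1% and 24.8% of all genes. Spike-in scaling gave 2 higher and 33 lower, beside 5.79% and 66.0%, and the authors' values gave 2 lower, beside 11.1%. Leaving out single arrays gave 17 to 24 higher and 5 to 9 lower, the 5 without wild type replicate 3. The shares of all genes were then 20.6% to 26.8% and 18.9% to 25.0%. Over all genes 5768 were higher and 5083 lower (28.1% and 24.8%). The counts were 1187 and 13542 with spike-in scaling (5.79% and 66.0%), and 7306 and 2277 in the authors' values (35.6% and 11.1%).

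The shared replicate numbers were not used as pairs in the main fit. Deviations of same-numbered arrays correlated at 0.18, -0.026 and -0.082 across genes, and those of arrays with different numbers at -0.31 to 0.17. Deviations sum to 0 within a genotype, so these correlations cannot settle whether the numbers mark a shared batch. In a block fit 35S:MYB106VP16 replicate 4 has no wild-type partner and adds nothing to the difference. With the replicate number as a block, limma called 2 of the 9 higher and 0 lower (PRR5 log2 -0.51, adjusted p = 0.0675; LNK1 0.21, adjusted p = 0.1). Of all genes it called 4596 higher and 4470 lower, or 22.4% and 21.8%.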

Other observations

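Among the light input and clock-associated factors, some genes beyond those described above also passed. DET1, a repressor of light responses, had a log2 change of 0.62 (adjusted p = 0.00184, limma). JMJD5, a jumonji-domain gene with a clock function, had a log2 change of 0.63 (adjusted p = 0.00222, limma). CHE, a TCP factor that represses CCA1, had 11.9 to 17.1 in 35S:MYB106VP16 and 19.1 to 21.0 in wild type (log2 -0.51; adjusted p = 0.0111, limma). CKB4, a subunit of casein kinase 2, which phosphorylates CCA1 protein, had a log2 change of -0.50 (adjusted p = 0.00697, limma). These genes were named after their values were seen, and their relation to the morning-phased clock genes was not tested.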
